A study of Mus musculus with 4 samples.

Results

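SNARE proteins are the fusion machinery of membrane traffic. A SNARE on a vesicle zippers with SNAREs on its target membrane, syntaxins and SNAP proteins at the cell surface among them, Sec1/Munc18 proteins clamp or chaperone the syntaxin, and the exocyst tethers the secretory vesicle before fusion. In leukocytes this machinery releases neutrophil granules, cytotoxic granules and cytokines, and loss of STX11 or STXBP2 in people causes familial hemophagocytic lymphohistiocytosis, an inherited disorder of cytotoxic granule release. The genes described here are those whose symbols match the Stx, Stxbp, Vamp and Exoc families with a number, or Snap23, Snap25, Snap29 and Snap47. They number 42 of the 31053 features counted, and they were chosen by name alone: 15 syntaxins, 4 SNAP proteins, 7 vesicle SNAREs (Vamp), 3 Munc18 proteins, 3 tomosyn and related binding proteins, 9 exocyst subunits and 1 exocyst-like paralog. All 42 had at least 1 UMI (unique molecular identifier, 1 per captured transcript) in the cells kept.

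The cells were live CD45+ leukocytes sorted from lung of C57BL/6 mice, wild type (WT) or knocked out for Rab37 (Rab37 KO), a small GTPase of secretory vesicles. The animals received Matrigel alone (normal lung) or LLC, a mouse lung carcinoma line, and cells were taken 14 days after tumors were established, which makes 4 groups. The labels give neither the age of the mice nor the number pooled, nor whether the knockout is limited to a cell type. Each group is 1 library of 3' single-cell RNA-seq: no difference between groups has a replicate behind it, no test was made, and every interval below is a 95% interval for counting error only. Where 4 values follow each other, the first pair is normal lung and the last pair tumor, with WT before Rab37 KO in each pair.

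After cells under 200 genes, cells over 10% mitochondrial UMIs and called doublets were left out, 5015, 4616, 644 and 2725 cells remained, with 33822521, 33291597, 5183771 and 30053499 UMIs. Rab37 itself stood at 8.52, 0.390, 4.63 and 0.266 CPM (UMIs of the gene per 1000000 UMIs), low in both knockout libraries as labelled. The tumor WT library held Xist (2355 UMIs) and 1 UMI of 4 Y-linked genes, the tumor Rab37 KO library 1210 and 4508, so that the sex of the tumor mice cannot be told apart from genotype, and both normal libraries held both kinds. The files of normal and tumor libraries name different software versions (3.0.1 and 3.1.0), which cannot be told apart from tissue. Of the kept cells, 13 carry a barcode that a second library also holds. Ptprc, the gene of CD45, stood at 610 to 967 CPM in the 7 lineages described here, and 254 kept cells in clusters named endothelial-like, fibroblast-like or epithelial-like were left out of them.

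Cells were clustered without the 42 genes, and clusters were named from marker lists, hence the ending "-like". The lineages held, in the same order, 384, 565, 208 and 1320 neutrophil-like cells, 539, 477, 228 and 830 monocyte/macrophage-like, 987, 709, 24 and 250 alveolar macrophage-like, 200, 149, 26 and 61 dendritic-like, 1664, 1517, 59 and 85 T-like, 377, 292, 26 and 61 NK-like and 683, 642, 55 and 65 B-like cells. A level, in CPM, is the summed UMIs of a gene in a lineage and library, scaled to 1000000 UMIs of that lineage and library. It is a share of the captured RNA and not an amount per cell: median depth was 2128 to 3484 UMIs in neutrophil-like cells and 8961 to 13160 in alveolar macrophage-like cells. Since 3' counting takes about 1 tag per transcript whatever its length, levels of different genes are set side by side without a length correction.

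The promoters of Vamp8, Snap23 and Stx11 are shown first because the lineage differences described below turn on these 3 genes: Stx11 and Snap23 were highest in neutrophil-like cells and Vamp8 in alveolar macrophage-like cells. The sequences are the 250 bases before and 50 after the start in RefSeq (GRCm38.p6), 5' to 3' on the gene's strand, at chr10:12964210-12964509 (minus strand) for Stx11, chr2:120567421-120567720 (plus) for Snap23 and chr6:72390618-72390917 (minus) for Vamp8. Capitals mark matches to any of 5 searched motifs.
Stx11: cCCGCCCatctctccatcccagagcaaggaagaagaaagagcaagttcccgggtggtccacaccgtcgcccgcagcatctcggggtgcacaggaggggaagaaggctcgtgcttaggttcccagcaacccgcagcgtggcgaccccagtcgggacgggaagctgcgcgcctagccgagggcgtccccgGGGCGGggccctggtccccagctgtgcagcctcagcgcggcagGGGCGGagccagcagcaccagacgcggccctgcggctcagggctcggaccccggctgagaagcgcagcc
Snap23: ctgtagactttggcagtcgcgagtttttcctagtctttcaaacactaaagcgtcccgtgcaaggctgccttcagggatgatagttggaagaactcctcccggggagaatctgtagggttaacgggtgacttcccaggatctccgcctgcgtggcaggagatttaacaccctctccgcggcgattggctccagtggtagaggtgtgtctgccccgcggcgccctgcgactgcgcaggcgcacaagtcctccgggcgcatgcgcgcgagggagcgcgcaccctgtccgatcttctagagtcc
Vamp8: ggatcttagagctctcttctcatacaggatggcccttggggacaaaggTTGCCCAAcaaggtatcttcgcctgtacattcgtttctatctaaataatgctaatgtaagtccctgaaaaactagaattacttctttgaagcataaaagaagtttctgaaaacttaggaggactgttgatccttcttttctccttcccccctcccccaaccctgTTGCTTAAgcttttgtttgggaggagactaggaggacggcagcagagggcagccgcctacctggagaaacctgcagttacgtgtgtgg

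The motifs were searched on both strands: PU.1 (GAGGAAG), C/EBP (TTGCNNAA), AP-1 (TGANTCA), NF-kB and the GC box (GGGCGG). None of these letter patterns overlaps another one in the matches shown. The Stx11 window held 3 GC boxes, starting 249, 62 and 19 bases before the start, in a sequence of 71% G and C with 27 CpG dinucleotides. The Vamp8 window, of 46.7% G and C with 5 CpG, held 2 C/EBP matches, starting 202 and 38 bases before the start. The Snap23 window (60.3%, 25 CpG) held no match. Among all 32851 promoters of the table, 35.7% held a GC box, 10.8% a C/EBP match, 13.6% a PU.1 match, 7.81% an AP-1 match and 0.411% an NF-kB match. A promoter was listed for 35 of the 42 members, of which 25 held a GC box, 5 a C/EBP match, 5 a PU.1 match, 1 an AP-1 match and 0 an NF-kB match. A member counted where any of its listed windows held the match, whereas the shares over all are of single promoters, so the units differ. The members' windows had a median of 60% G and C and 19.5 CpG, against 52.7% and 7.0 over all promoters. These matches describe letters and not binding.

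**Figure D1:**
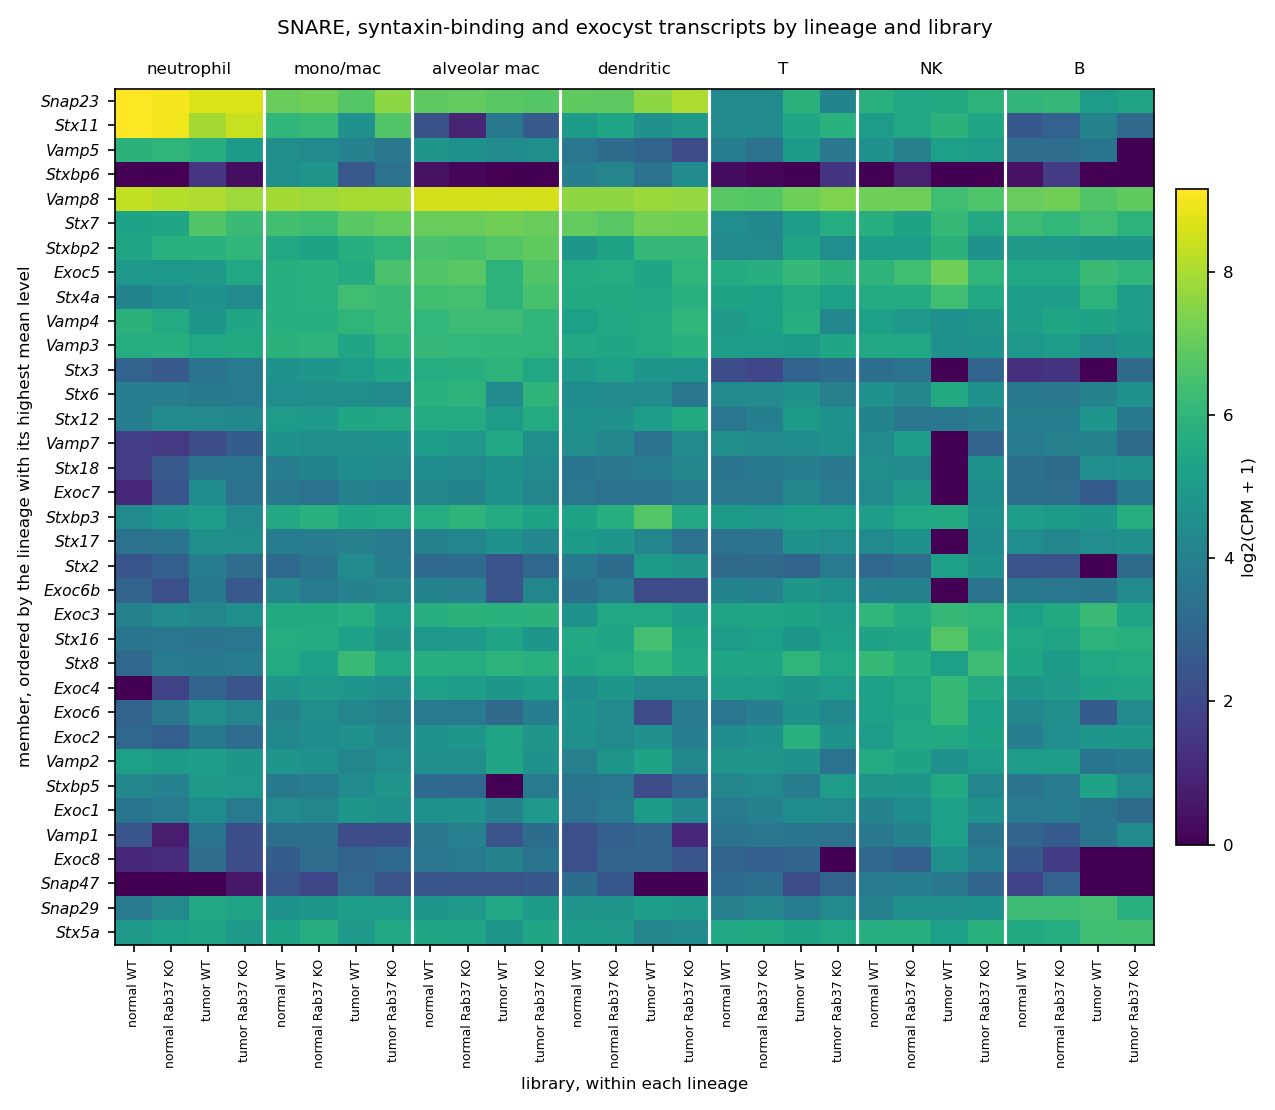
Levels of the 35 members whose highest lineage mean reached 10 CPM (rows) in each lineage and library (columns), as log2(CPM + 1). Snap23 and Stx11 are brightest in the neutrophil-like columns and Vamp8 is bright in every column, while several rows, among them Exoc4 and Vamp7, darken in neutrophil-like cells. Stx3 is dark in neutrophil-like, T-like, NK-like and B-like cells. The dark cells scattered in tumor WT columns come from small numbers of cells (24 to 59 for alveolar macrophage-like, dendritic-like, NK-like, T-like and B-like).

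Of the 42 genes, 18 reached 50 CPM in their highest lineage (mean of the 4 libraries). Alveolar macrophage-like cells were highest for 9 of them, neutrophil-like and NK-like cells for 3 each, B-like cells for 2 and dendritic-like cells for 1. The share of all genes at this level that each lineage leads was not counted, so these counts are not shown to set the members apart. For 7 of the 18 the highest lineage was the same in all 4 libraries and its range over libraries lay apart from that of the next lineage: Stx11, Stx3, Snap23, Snap29, Vamp8, Vamp3 and Stxbp2. The share of all genes that meet the same limits was not counted either, so 7 of 18 is not shown to set the members apart. At the other end, 6 genes stayed under 5 CPM in every lineage mean, among them Stx1a, Stx19, Snap25, Exoc3l and Stxbp4. Stx1a and Snap25 are subunits of the neuronal release machinery. These are descriptions across 4 libraries of different conditions, not replicates.

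Among the plasma membrane syntaxins, Stx11 (chr10:12938209-12964298, minus strand, mm10) was the neutrophil gene of the set. Stx11 lacks a transmembrane anchor and works with Munc18-2 in granule release. Its level in neutrophil-like cells was 574 (95% Poisson interval 526 to 625), 505 (471 to 541), 245 (206 to 289) and 340 CPM (327 to 353). Every library's neutrophil value lay above every value of any other lineage, and the normal values lay above the tumor values. Next came monocyte/macrophage-like cells at 65.3, 72.3, 24.1 and 102 CPM, whose range overlapped those of NK-like (32.0 to 58.4) and T-like cells (19.2 to 56.2). Those with under 1% of UMIs from the 10 neutrophil markers had 34.6, 30.3, 15.4 and 51.8 CPM. Their second place therefore depends on the cells with more of these markers, and the part of neutrophil RNA in it was not tested. Alveolar macrophage-like cells had 3.82, 0.933, 12.1 and 5.22 CPM, the lowest of the 7 lineages, the third of these from 24 cells, and their range overlapped that of B-like cells (4.77 to 16.1). The mean of neutrophil-like cells, 416 CPM, was 75.4 times that of alveolar macrophage-like cells.

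The same order appeared in shares of cells. After each cell was thinned to 1500 UMIs, 42.7%, 43.3%, 28.5% and 35.0% of neutrophil-like cells had a Stx11 UMI (358, 538, 165 and 1271 cells, with 26, 27, 43 and 49 shallower ones left out). Unthinned, these shares were 56.0%, 56.3%, 36.1% and 62.8% at median depths of 2235.5, 2624, 2128 and 3484 UMIs. In alveolar macrophage-like cells the thinned shares were 0.611%, 0.142%, 0% and 0.400% (unthinned 3.75%, 1.27%, 8.33% and 4.80%), and the 0 of 22 tumor WT cells allows a share of up to 15.4% (exact 95% limit). That lineage had the lowest mean level of Stx11 and deeper cells than the neutrophil-like ones, so its shares do not measure free RNA in neutrophil-like cells. The part of free RNA in the neutrophil shares was not tested.

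Stx11 so dominated the syntaxins of neutrophil-like cells that it gave 78.6%, 73.4%, 46.8% and 59.1% of all their syntaxin UMIs. In monocyte/macrophage-like cells it gave 14.4%, 15.6%, 4.74% and 18.1%, and in alveolar macrophage-like cells 0.172% to 2.34%. Stx3 and Stx4a had the opposite order of these lineages. Stx3, a surface syntaxin with a role in regulated secretion, was at 50.1, 53.7, 60.5 and 43.0 CPM in alveolar macrophage-like cells, above monocyte/macrophage-like cells (24.6 to 41.3) in every library. It was at 6.55, 4.97, 10.4 and 12.8 CPM in neutrophil-like cells, a range below that of dendritic-like cells (25.8 to 36.9), and at 0 to 7.99 CPM in B-like cells. Stx4a, the broadly used surface syntaxin, was lowest in neutrophil-like cells (16.4, 21.1, 24.3 and 20.2 CPM) and highest on average in alveolar macrophage-like cells (82.0, 84.9, 60.5 and 88.7 CPM).

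**Figure D2:**
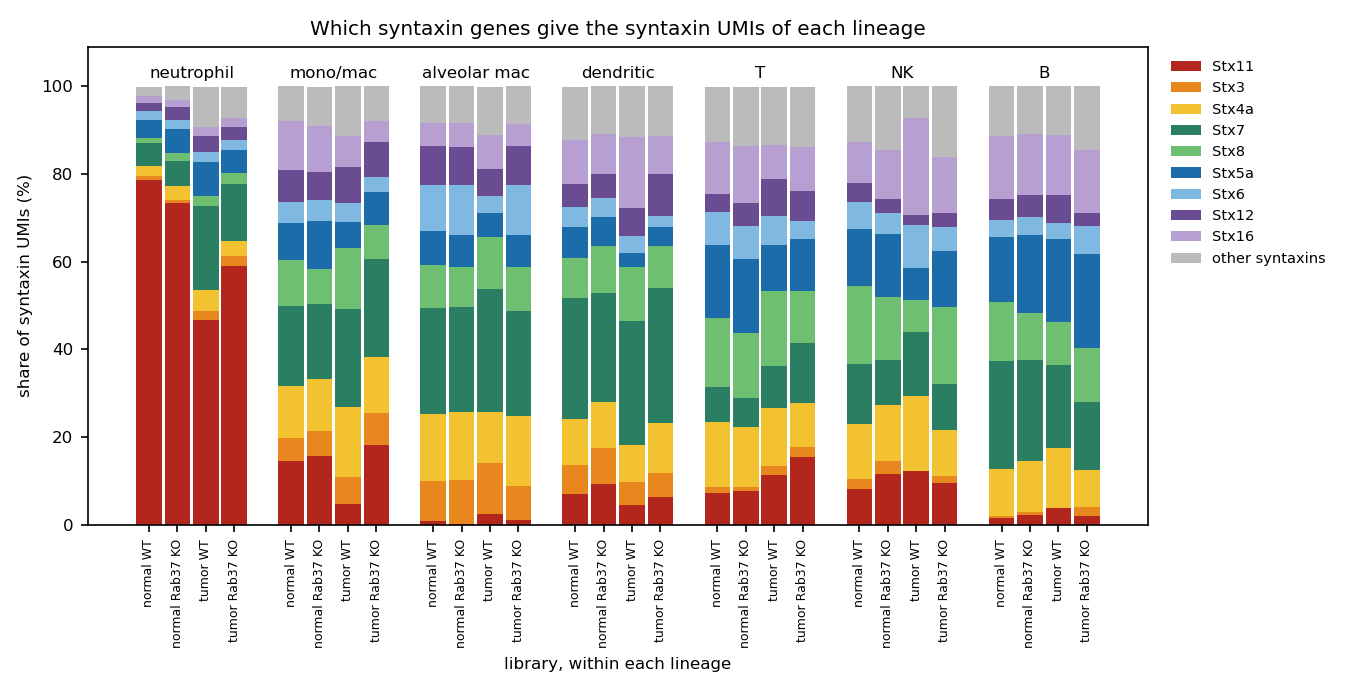
Each bar splits the syntaxin UMIs of 1 lineage in 1 library by gene, in percent. Stx11 takes 46.8% to 78.6% of the neutrophil-like bars and at most 18.1% of every other bar.

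The endosomal, lysosomal and Golgi syntaxins were as a group lowest in neutrophil-like cells, summing to 129, 151, 228 and 194 CPM over 8 genes, against 393, 394, 375 and 404 CPM in alveolar macrophage-like cells. Stx7, a syntaxin of late endosomes, stood at 129, 130, 145 and 131 CPM in alveolar macrophage-like and 124, 110, 151 and 146 CPM in dendritic-like cells, 2 ranges that overlap, and T-like cells were lowest in 3 of 4 libraries (18.2 to 49.6 CPM). In neutrophil-like cells Stx7 was at 39.3 and 40.4 CPM in normal lung and at 101 and 75.0 CPM in tumor. Stx8, the partner of Stx7 in late endosome fusion, was at 7.64, 12.4, 12.2 and 13.9 CPM in neutrophil-like cells and at 30.8 CPM or more in every other lineage and library. Stx16, a syntaxin of the trans-Golgi network, showed the same gap, at 10.4 to 11.2 CPM in neutrophil-like cells against 26.5 CPM or more elsewhere. Stx6 of the trans-Golgi network reached 56.6, 61.2, 20.2 and 61.9 CPM in alveolar macrophage-like cells, of which the third value rests on 5 UMIs. Stx5a of the early Golgi had lineage means from 24.6 CPM (dendritic-like) to 65.3 CPM (B-like).

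Of the SNAP proteins, which complete the fusion bundle at the target membrane, Snap23 (chr2:120567671-120601255, plus strand) shared the neutrophil peak of Stx11. Neutrophil-like cells had 572 (524 to 623), 521 (486 to 557), 403 (353 to 459) and 404 CPM (390 to 419). Dendritic-like cells followed with 121, 118, 195 and 264 CPM, monocyte/macrophage-like cells with 131, 144, 107 and 193 CPM and alveolar macrophage-like cells with 119, 124, 113 and 106 CPM, ranges that overlap their neighbours. T-like cells, at 19.5, 19.9, 58.9 and 16.5 CPM, were lowest in 3 of 4 libraries, and in tumor WT B-like (32.3 CPM) and NK-like cells (46.7 CPM) lay below them. Thinned to 1500 UMIs, 57.0%, 56.1%, 48.5% and 47.9% of neutrophil-like cells had a Snap23 UMI, against 2.90%, 3.24%, 5.17% and 1.19% of T-like cells. Unthinned, the shares were 69.0%, 75.8%, 64.4% and 76.9% in neutrophil-like cells and 9.19%, 11.0%, 15.3% and 8.24% in T-like cells, at median depths of 3123 to 5485 UMIs in the latter.

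Snap29, a SNAP protein of autophagosome and endosome fusion, was the B cell gene of the set at 77.8, 76.7, 86.0 and 55.9 CPM in B-like cells. Every other lineage stayed at 45.2 CPM or below. The Snap29 gene overlaps Pi4ka on the opposite strand. Snap47 was highest in NK-like cells, at 7.04 to 14.1 CPM, and at 0 to 0.534 CPM in neutrophil-like cells. Snap25 gave at most 0.113 CPM in any lineage and library.

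**Figure D3:**
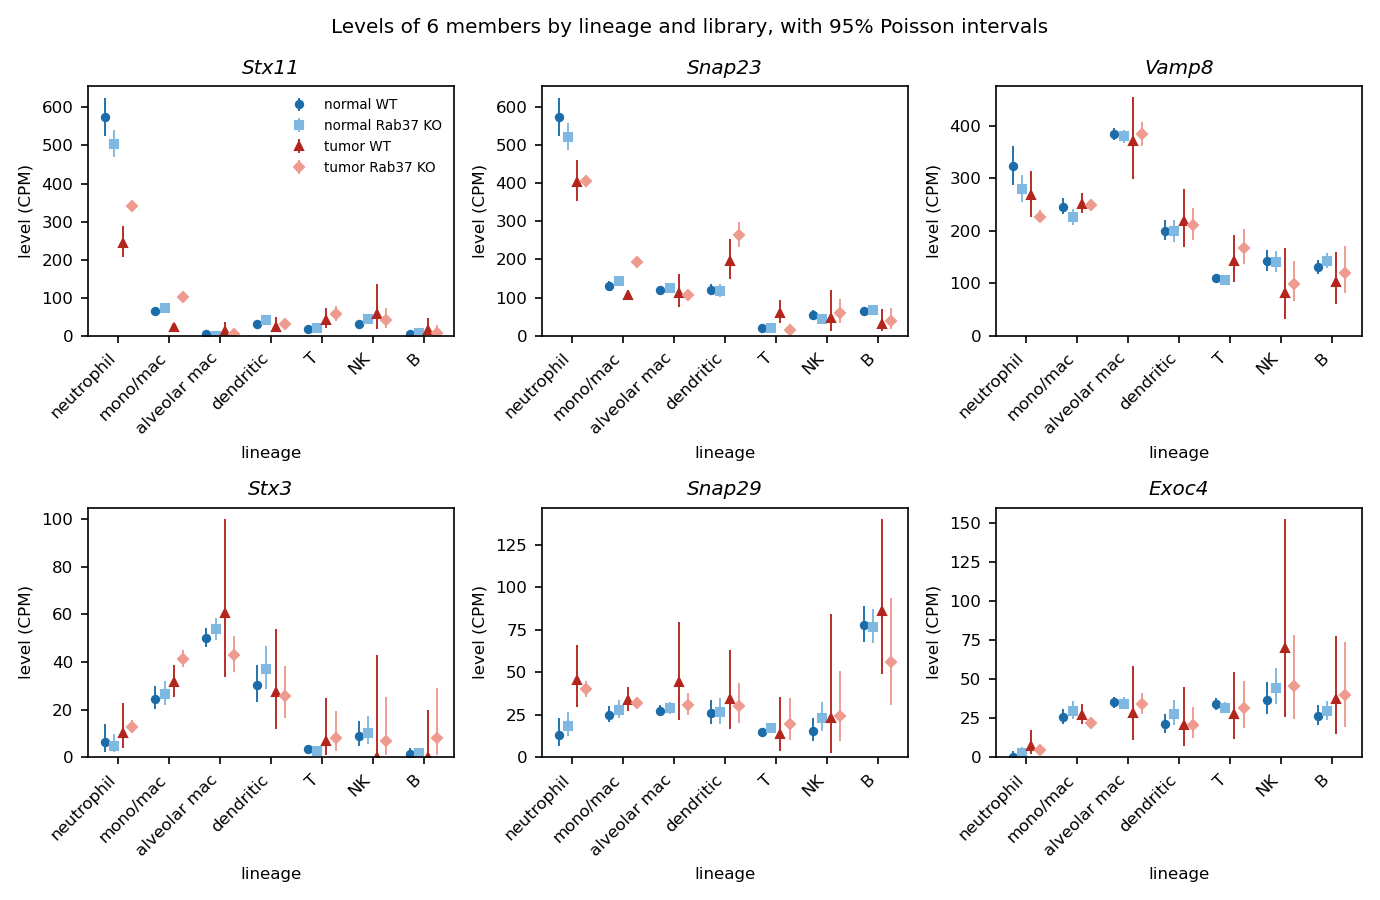
Levels (CPM, linear axis from 0) of 6 members in each lineage. Each point is 1 library with its 95% Poisson interval. Stx11 and Snap23 peak in neutrophil-like cells in every library, Vamp8 and Stx3 in alveolar macrophage-like cells and Snap29 in B-like cells, and Exoc4 is lowest in neutrophil-like cells (0 to 6.95 CPM).

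Vamp8 (chr6:72385223-72390703, minus strand), the vesicle SNARE of granule and lysosome fusion, was the member with the highest mean over lineages and was abundant in all of them. It stood at 384, 380, 371 and 384 CPM in alveolar macrophage-like cells, the steadiest of the high levels. Neutrophil-like cells (323, 280, 268 and 227 CPM) overlapped monocyte/macrophage-like cells (246, 226, 252 and 250 CPM), dendritic-like cells lay below them (199 to 219 CPM), and T-like, B-like and NK-like cells shared the range from 81.7 to 167 CPM. Vamp8 gave 36.8% to 65.0% of the vesicle SNARE UMIs in the 28 pairs of lineage and library. Vamp5, the neighbouring gene on the same strand (chr6:72368794-72380468), was highest in neutrophil-like cells in 3 of 4 libraries, at 57.8, 63.4, 52.2 and 30.6 CPM, and the ranges of neutrophil-like and NK-like cells (14.8 to 35.0) overlapped. Vamp3 of recycling endosomes was at 67.6, 65.7, 64.5 and 63.2 CPM in alveolar macrophage-like cells and at 41.8 to 61.4 CPM in monocyte/macrophage-like cells. It overlaps the large gene Camta1 on its own strand, so some of its UMIs could belong to either. Vamp4 of the trans-Golgi network had lineage means from 29 CPM (NK-like, 23.4 to 34.7) to 71.3 CPM (alveolar macrophage-like, 64.9 to 77.6). Vamp7, the lysosomal vesicle SNARE, was at 2.18, 1.87, 3.48 and 5.47 CPM in neutrophil-like cells against 21.9 to 25.3 CPM in monocyte/macrophage-like cells.

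Stxbp2, which encodes Munc18-2, the partner of Stx11, did not follow Stx11. It was highest in alveolar macrophage-like cells at 91.4, 89.7, 105 and 120 CPM, where Stx11 was lowest. Neutrophil-like cells had 42.5, 55.3, 57.4 and 63.8 CPM, a range that overlapped dendritic-like (27.9 to 68.5) and monocyte/macrophage-like cells (38.9 to 63.7). Stxbp3 (Munc18-3) overlapped between most lineages. Stxbp6, which encodes amisyn, a SNARE-binding protein, was at 22.5, 26.2, 4.95 and 9.69 CPM in monocyte/macrophage-like and 10.3 to 20.5 CPM in dendritic-like cells, and at most 2.01 CPM in the other lineages. In the cluster led by Plac8, Ms4a4c and Ms4a6c, named classical monocyte-like, it was at 72.6 (56.5 to 91.9), 78.4 (60.5 to 99.9), 16 (3.30 to 46.7) and 40.6 CPM (26.8 to 59.1), the third from 3 UMIs. In the neutrophil cluster of normal lung it gave 0 UMIs in both libraries, which allows up to 4.19 and 2.42 CPM. The Stxbp6 values by cluster were singled out after they had been seen.

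The exocyst subunits were, as a sum over 9 genes, lowest in neutrophil-like cells in every library: 77.5, 91.4, 151 and 128 CPM, against 297, 315, 254 and 307 CPM in alveolar macrophage-like cells and 290, 335, 455 and 317 CPM in NK-like cells. Exoc5, the most abundant subunit, ranged from 28.4 to 43.6 CPM in neutrophil-like cells and stood at 102, 112, 60.5 and 101 CPM in alveolar macrophage-like cells. Exoc3 was also low in neutrophil-like cells (15.3 to 22.4 CPM), against 52.8 to 58.9 CPM in alveolar macrophage-like and 49.0 to 70.1 CPM in NK-like cells, ranges that overlap. Exoc4 was highest in NK-like cells, at 36.8, 44.5, 70.1 and 45.8 CPM, a range that overlapped that of B-like cells (26.4 to 39.9). It stood at 0, 2.49, 6.95 and 4.40 CPM in neutrophil-like cells. Exoc6 was highest in NK-like cells as well (36.8, 41.6, 70.1 and 35.2 CPM), above the monocyte/macrophage-like range of 15 to 21.9 CPM, and the other lineages reached at most 24.2 CPM. The tumor WT value of NK-like cells comes from 26 cells. Exoc2 overlaps Hus1b on its own strand. In all, 12 of the 31 members that averaged at least 10 CPM over lineages were on average lowest in neutrophil-like cells. The share of all genes lowest there was not counted, so this number is not shown to set the members apart. The 10 neutrophil markers made up 14.0% to 16.9% of the UMIs of these cells. The 26 SNAREs together summed highest in neutrophil-like cells in every library (1846, 1705, 1410 and 1404 CPM). Without Stx11 and Snap23 the other 24 SNAREs summed to 700, 680, 762 and 660 CPM in neutrophil-like cells, against 1176, 1187, 1174 and 1171 CPM in alveolar macrophage-like cells.

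Of the wider secretory pathway, 59 further genes in 5 lists were looked up, and all 59 were in the files. Tnfaip2, an exocyst-related protein, was at 1051, 1004, 763 and 616 CPM in neutrophil-like and 900, 843, 754 and 619 CPM in alveolar macrophage-like cells, and at 23.1 CPM or less in the lymphoid lineages. Rab27a, the GTPase of granule docking, was at 50, 57.9, 81.7 and 73.9 CPM in NK-like cells, a range that overlapped those of neutrophil-like (28.4 to 67.1) and T-like cells (25.5 to 55.4). Nsf, the ATPase that takes spent SNARE bundles apart, was at 9.82, 14.3, 33.0 and 34.7 CPM in neutrophil-like and 103, 108, 121 and 100 CPM in alveolar macrophage-like cells. Its adaptor Napa was higher in neutrophil-like cells than in any other lineage in every library, at 173, 132, 88.7 and 95.7 CPM. These 4 pathway genes were picked for their lineage pattern after their values had been seen.

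The first question of the design is what loss of Rab37 does in the tumor. In monocyte/macrophage-like cells, Stx11 was at 102 CPM (97.1 to 108) in tumor Rab37 KO and at 24.1 CPM (18.7 to 30.5) in tumor WT, 4.25 times as high (3.33 to 5.51), from 1405 and 68 UMIs. Snap23 was 1.81 times as high (1.60 to 2.04, 193 and 107 CPM) and Exoc5 1.85 times (1.55 to 2.22, 90.9 and 49.2 CPM). Lower in the knockout were Stx8, at 0.617 of tumor WT (0.525 to 0.727, 43.6 and 70.8 CPM), and Exoc3, at 0.635 (0.525 to 0.770, 32.8 and 51.7 CPM). Vamp8 was at 250 and 252 CPM, a ratio of 0.989 (0.912 to 1.07), and Stxbp2 had a ratio of 1.19 (1.00 to 1.43). Of the 36 members with at least 20 UMIs over both libraries, 5 were at least 1.5-fold higher and 3 at least 1.5-fold lower, where 21.9% and 19.7% of all 11159 genes measured alike were. The members' median log2 ratio was 0.03, beside 0.01 for all genes.

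Different cells make up this lineage in the 2 tumor libraries. The cluster led by Igha, Gpnmb and Syngr1 (with Trem2 and Spp1) holds 133 of 228 tumor WT cells and 41 of 830 tumor Rab37 KO cells, and the cluster led by Arg1, Ppbp and Pf4, of which the latter pair are also platelet genes, holds 46 and 524. Within the Arg1 cluster Stx11 was at 122 CPM (114 to 129) in the knockout and 42.3 (25.4 to 66.0) in WT, and Snap23 at 220 (210 to 230) and 151 (117 to 192). Within the Gpnmb cluster Stx11 was at 26 (16.5 to 39.1) and 14.2 (9.43 to 20.5) and Snap23 at 106 (86.0 to 130) and 93.3 (80.3 to 108), intervals that overlap. Giving each shared cluster the same weight in the 2 libraries brought Stx11 to 2.35 and Snap23 to 1.29, Exoc5 to 1.48 and Stx8 to 0.703, the last 3 no longer past 1.5-fold. Without the Arg1 cluster Stx11 was at 3.42, Snap23 at 1.51, Stx8 at 0.692 and Exoc3 at 0.825.

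Neutrophil markers were also higher in tumor Rab37 KO than in tumor WT cells of this lineage. Over the 4 libraries Stx11 was at 65.3, 72.3, 24.1 and 102 CPM and Snap23 at 131, 144, 107 and 193 CPM. Their relation to these markers was not tested. The 10 neutrophil markers made up 0.739%, 1.11%, 0.999% and 2.32% of the UMIs of monocyte/macrophage-like cells in the 4 libraries, all 10 were found in each, and none was at 0. In the cells with under 1% of UMIs from these markers (195 of 228 in tumor WT, 481 of 830 in tumor Rab37 KO), Stx11 was at 15.4 (10.8 to 21.3) and 51.8 CPM (46.3 to 57.7), a ratio of 3.37, and Snap23 at 101 (88.7 to 115) and 136 (128 to 146), a ratio of 1.35. Exoc3 had a ratio of 0.769 there. The markers themselves still stood at 880 and 2202 CPM in those cells. The part of neutrophil RNA in what remains was not tested.

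**Figure D4:**
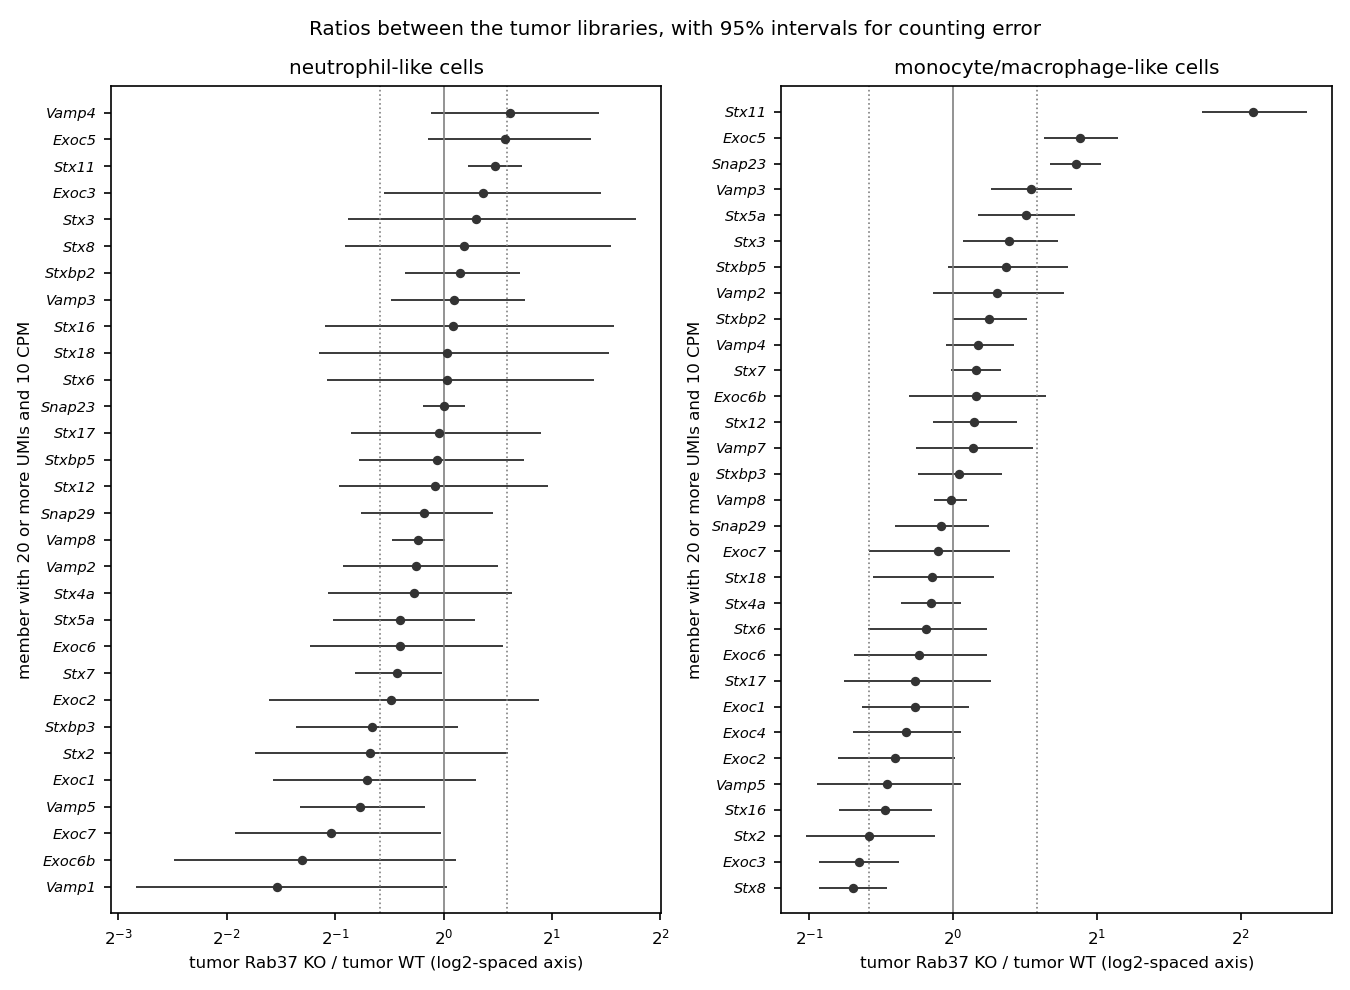
Ratios of tumor Rab37 KO to tumor WT for members whose UMIs came to 20 or more in all and whose level reached 10 CPM in either library, on a log2-spaced axis, with 95% intervals for counting error. The solid line is a ratio of 1 and the dotted lines are 1.5-fold either way. In monocyte/macrophage-like cells Stx11 stands apart at 4.25, and in neutrophil-like cells most intervals cross 1.

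In neutrophil-like cells Stx11 was at 340 and 245 CPM, 1.39 times as high in the knockout (1.17 to 1.65) and so under 1.5-fold, and Snap23 was at 404 and 403 CPM, a ratio of 1.00 (0.876 to 1.15). Vamp5 was lower in the knockout, at 30.6 and 52.2 CPM (ratio 0.586, 0.399 to 0.889). Of 33 members measured, 2 were at least 1.5-fold higher and 9 lower, beside 16.7% and 21.8% of 8061 genes. Of the 9, Vamp5 alone had level intervals that did not overlap, since 208 tumor WT cells gave 4 to 30 UMIs for these genes. Of the 9 exocyst subunits, 5 were among these lower members, none with intervals apart, beside 21.8% of all genes. At so few UMIs this number is not shown to set them apart.

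The Stx11 value hides a difference between neutrophil clusters. In the cluster led by Gm5483, 2010005H15Rik and Cxcl3, which also carries Ccl3 and Ccl4, Stx11 was at 115 CPM (68.3 to 182, from 18 UMIs in 78 cells) in tumor WT and at 365 CPM (344 to 386, 609 cells) in tumor Rab37 KO. In the cluster led by Ifitm1, Lrg1 and Wfdc17 it was at 295 (234 to 366) and 310 CPM (285 to 336). Snap23 in these clusters was alike in both libraries: 512 (406 to 637) and 474 (450 to 498), then 453 (377 to 539) and 478 CPM (447 to 510). The Camp, Ngp and Ltf cluster of granule-protein transcripts held 182 cells of the knockout, with Stx11 at 328 and Snap23 at 240 CPM, the latter below the 453 CPM or more of the other neutrophil clusters. These clusters were singled out after their values had been seen.

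**Figure D5:**
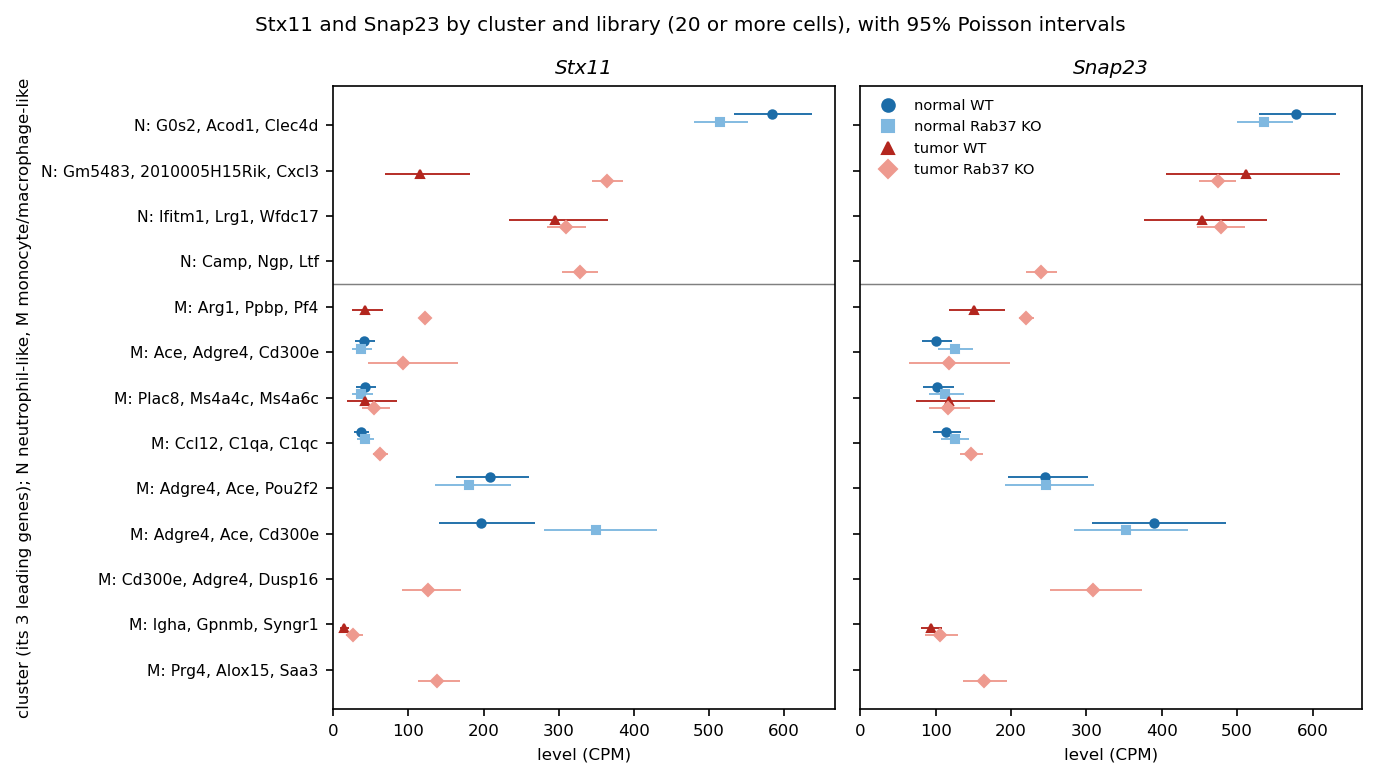
Stx11 and Snap23 levels (CPM, with 95% Poisson intervals) in each neutrophil-like (N) and monocyte/macrophage-like (M) cluster, 1 point per library with at least 20 cells. Stx11 in tumor WT (115 CPM) sits far below tumor Rab37 KO (365 CPM) in the cluster led by Gm5483 and beside it in the cluster led by Ifitm1. Among M clusters the highest values, 350 CPM for Stx11 and 389 CPM for Snap23, belong to a cluster led by Adgre4. That cluster also scored 1.761 for neutrophil markers.

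Among the monocyte/macrophage-like clusters, Stx11 and Snap23 were highest in nonclassical monocyte-like clusters led by Adgre4 and Ace, with Stx11 at 197 (141 to 268) and 350 CPM (280 to 431) in 1 of them in the normal libraries and Snap23 at 389 and 353 CPM. That cluster also scored 1.761 for neutrophil markers (mean log2 difference), and the part of neutrophil RNA in it was not tested. Its leading genes include Hdc, a listed neutrophil marker, and Csf1 and Ptgs2os2, which with Hdc also lead the main neutrophil-like cluster of normal lung. The clusters led by Adgre4, Ace and Pou2f2 and by Cd300e, Adgre4 and Dusp16 scored 1.026 and 1.138 for neutrophil markers. The nonclassical monocyte-like cluster led by Ace, Adgre4 and Cd300e, whose next class was T at -0.244, had 40.8 and 36.2 CPM of Stx11 and 100 and 125 CPM of Snap23.

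In alveolar macrophage-like cells, Stx6 was at 61.9 CPM in tumor Rab37 KO and at 20.2 in tumor WT, a ratio of 3.07 (1.29 to 9.57), from 190 and 5 UMIs. In T-like cells Snap23 was at 16.5 and 58.9 CPM (ratio 0.281, 0.115 to 0.650), from 10 and 17 UMIs. With each cell's lineage taken from its own markers in place of its cluster, that ratio was 0.880. The alveolar macrophage ratio rests on 24 tumor WT cells and the T cell ratio on 59. Of 32 and 21 members measured in these lineages, 8 and 1 were higher (background 24.7% and 14.2%) and 4 and 4 lower (15.5% and 16.5%).

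In normal lung few members passed 1.5-fold between genotypes. Of 36 members measured in monocyte/macrophage-like cells, 2 were higher (among them Exoc8 at 8.73 against 5.45 CPM) and 0 lower, beside 5.52% and 5.43% of 10257 genes. Of 23 in neutrophil-like cells, 2 were higher (Stx8 at 12.4 against 7.64 CPM and Exoc6 at 11.8 against 6.55) and 0 lower, beside 12.2% and 7.12% of 4861 genes. Exoc8, Stx8 and Exoc6 are named because such members are few, and the level intervals of each pair overlapped. Stx11 had ratios of 1.11 (0.935 to 1.31) in monocyte/macrophage-like and 0.880 (0.788 to 0.984) in neutrophil-like cells, and Snap23 of 1.10 (0.976 to 1.24) and 0.910 (0.815 to 1.02). T-like cells, the lineage with most cells, had 0 of 36 members past 1.5-fold either way, beside 4.23% higher and 4.71% lower over all genes. In alveolar macrophage-like cells 3 of 36 were lower and 0 higher (background 4.43% and 2.33%), all under 4 CPM, with Stx11 at 0.933 against 3.82 CPM. The difference between the tumor ratio of Stx11 in monocyte/macrophage-like cells, 4.25, and the normal lung ratio, 1.11, exceeds their counting intervals, but it was not tested over replicates. The tumor ratio was smaller with clusters weighted alike. The tumor libraries also differ in cluster make-up, neutrophil markers and Xist and Y-linked UMIs, and the part of these was not tested.

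The remaining comparisons set tumor against normal lung within a genotype. Each tumor library also enters the knockout comparison in tumor and each normal library that in normal lung, so these values are not independent of those above. In neutrophil-like cells of WT mice, Stx11 was at 245 CPM in tumor and 574 in normal lung, a ratio of 0.427 (0.352 to 0.515), and in Rab37 KO mice at 340 and 505 CPM, a ratio of 0.673 (0.622 to 0.730). Snap23 had ratios of 0.706 (0.602 to 0.825) and 0.776 (0.719 to 0.839). Stx7 was higher in tumor, at 101 against 39.3 CPM in WT (2.57, 1.67 to 4.01) and 75.0 against 40.4 CPM in Rab37 KO (1.86, 1.43 to 2.44). Vamp5 was lower in tumor in Rab37 KO mice (30.6 against 63.4 CPM, ratio 0.482, 0.380 to 0.615) and stood at 52.2 and 57.8 CPM in WT. Snap29, under the 50 CPM limit for naming and noted after its values had been seen, was 3.45 (1.68 to 7.51) and 2.14 times (1.47 to 3.23) as high in tumor.

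Of 20 members measured in WT neutrophil-like cells, 6 were higher in tumor and 2 lower (background 34.7% and 14.7% of 4262 genes). Of 33 in Rab37 KO, 13 were higher and 1 lower (38.1% and 11.1% of 8200). The median log2 ratio of the members was 0.29 and 0.21, beside 0.28 and 0.33 for all genes. Tumor and normal neutrophils came from different clusters: the cluster led by G0s2, Acod1 and Clec4d held 371 and 552 of the normal cells and 10 and 12 of the tumor cells. Over the clusters found in both tissues, weighted alike, Stx7 had ratios of 1.15 in WT and 1.48 in Rab37 KO, under 1.5-fold. These clusters hold 53.4% of tumor WT and 14.7% of tumor Rab37 KO neutrophil-like cells. The G0s2 cluster is among them, with its 10 and 12 tumor cells, so these ratios rest on few cells.

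In monocyte/macrophage-like cells of WT mice, Stx11 was at 24.1 CPM in tumor and 65.3 in normal lung (0.368, 0.278 to 0.482), and in Rab37 KO mice at 102 and 72.3 CPM (1.42, 1.25 to 1.61). The fall in WT did not hold with clusters weighted alike (0.995), a value that rests on 20.2% of the tumor cells. In cells with under 1% of UMIs from neutrophil markers, Stx11 was at 15.4 CPM in WT tumor and 34.6 in WT normal lung. Such cells of Rab37 KO mice had 51.8 CPM in tumor and 30.3 in normal lung. Stx4a was 1.52 (1.26 to 1.84) and Stx8 1.5 times (1.23 to 1.84) as high in tumor in WT, and these became 1.03 with clusters weighted alike (Stx4a) and 1.28 with every cell weighted alike (Stx8). In Rab37 KO mice, Exoc5 was 1.66 (1.43 to 1.92), Stxbp2 1.64 (1.38 to 1.95) and Stx7 1.60 times (1.42 to 1.81) as high in tumor, of which Exoc5 came to 1.18 with clusters weighted alike and to 1.44 without the Arg1 cluster. The clusters shared by the Rab37 KO libraries hold 28.2% of these tumor cells. Stxbp6 was lower in tumor in both genotypes, at 4.95 against 22.5 CPM in WT and 9.69 against 26.2 CPM in Rab37 KO, and was noted after its values had been seen. Of 36 members, 6 were higher and 4 lower in either genotype, beside 19.9% and 25% of all genes in WT and 17.4% and 20.6% in Rab37 KO.

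In T-like cells of Rab37 KO mice, Stx11 was at 56.2 CPM in tumor and 20.7 in normal lung (2.72, 1.83 to 3.93) and Vamp8 at 167 and 107 CPM (1.56, 1.26 to 1.91), the latter 1.03 with clusters weighted alike. In WT, Snap23 was at 58.9 and 19.5 CPM (3.02, 1.72 to 4.98) and Exoc2 at 55.4 and 21.2 CPM (2.61, 1.46 to 4.36). Snap23 in Rab37 KO was at 16.5 and 19.9 CPM. With each cell's lineage taken from its own markers the WT ratio of Snap23 was 1.89. Neutrophil markers made up 0.00593%, 0.0233%, 0.149% and 0.0837% of the UMIs of T-like cells in the 4 libraries, higher in tumor as were Stx11 and, in WT, Snap23, and their part in these ratios was not tested. Of 35 members, 13 were higher and 1 lower in WT (39.3% and 11.1% of all genes) and 8 and 3 in Rab37 KO (25.7% and 12.8%). In alveolar macrophage-like cells Stx6 was at 20.2 and 56.6 CPM in WT (0.356, 0.115 to 0.836) and Stxbp3 at 39.1 and 61.3 CPM in Rab37 KO (0.638, 0.520 to 0.778). There, 6 of 35 were higher and 6 lower in WT (27.3% and 20.4%) and 3 and 2 of 35 in Rab37 KO (9.58% and 6.72%). Dendritic-like cells, not among the lineages of the naming rule and noted after their values had been seen, had Snap23 at 195 against 121 CPM in WT (1.62, 1.19 to 2.16) and 264 against 118 CPM in Rab37 KO (2.23, 1.86 to 2.69). Neutrophil markers made up 0.173% of the UMIs of dendritic-like cells in normal WT and 0.772% in tumor WT, and 0.202% and 0.352% in Rab37 KO, and their part in these ratios was not tested.

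The wider pathway was read by the same limits. Between the tumor libraries, 6 of 38 pathway genes measured in monocyte/macrophage-like cells were higher in Rab37 KO and 3 lower (15.8% and 7.89%, beside 21.9% and 19.7% of all genes), and 5 and 1 of 29 in neutrophil-like cells (17.2% and 3.45%, beside 16.7% and 21.8%). Rab11a, the GTPase of recycling endosomes, was at 148 against 97.3 CPM in monocyte/macrophage-like cells (1.52, 1.34 to 1.73). In normal lung 2 of 36 were higher and 1 lower in monocyte/macrophage-like cells (all genes 5.52% and 5.43%), and 1 and 1 of 24 in neutrophil-like cells (12.2% and 7.12%). Tumor against normal, neutrophil-like cells had 7 of 20 higher and 1 lower in WT (35.0% and 5.00%, beside 34.7% and 14.7% of all genes), with Napa at 88.7 against 173 CPM (0.511, 0.365 to 0.705). In Rab37 KO they had 7 of 29 higher and 3 lower (24.1% and 10.3%, beside 38.1% and 11.1%). In the latter Rab27a was at 67.1 against 34.8 CPM (1.93, 1.46 to 2.59), Tnfaip2 at 616 against 1004 CPM (0.614, 0.580 to 0.650), Ralb, a GTPase that binds the exocyst, at 71.7 against 113 CPM (0.633, 0.534 to 0.753) and Rab8a at 102 against 155 CPM (0.659, 0.570 to 0.763). Monocyte/macrophage-like cells had 5 of 34 higher and 3 lower in WT (14.7% and 8.82%, beside 19.9% and 25% of all genes), led by Myo5a, a vesicle motor, at 105 against 45.9 CPM (2.30, 1.91 to 2.77), with Vti1b, a SNARE of late endosomes, at 62.6 against 38.8 CPM (1.61, 1.30 to 2.01). In Rab37 KO, 8 of 39 were higher and 1 lower (20.5% and 2.56%, beside 17.4% and 20.6%), the higher ones including Vti1b (1.61, 1.35 to 1.94), Nsf (1.61, 1.38 to 1.88) and Rab11a (1.58, 1.42 to 1.77). With clusters weighted alike, Rab11a (1.31 between tumor libraries and 1.38 in Rab37 KO), Napa (0.920), Rab8a (0.832), Myo5a (1.10) and Vti1b (1.39 in WT and 1.17 in Rab37 KO) were no longer past 1.5-fold, and Tnfaip2 turned to 1.39. Against normal lung, the shared clusters hold 53.4% (WT) and 14.7% (Rab37 KO) of tumor neutrophil-like cells. For tumor monocyte/macrophage-like cells they hold 20.2% and 28.2%.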

How the data were processed

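Live CD45+ cells of 4 libraries, 1 per genotype and tissue, were profiled with 10x Genomics 3' chemistry, per the labels' protocols. The authors deposited raw UMI counts per gene and barcode, not normalized. The file headers name software version 3.0.1 for normal and 3.1.0 for tumor libraries. Per the submitters' processing notes, reads were placed on mm10. Every barcode held at least 500 UMIs. All 42 members were in GENCODE vM21.

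Of 14396 barcodes, 13344 reached 200 genes with no more than 10% of UMIs mitochondrial. Scrublet in scanpy 1.11.5 called 227, 110, 3 and 4 doublets (4.33%, 2.33%, 0.464% and 0.147%), which were removed. The caller marked few of the tumor cells. Libraries were clustered together without batch correction (2000 variable genes, 30 components, 15 neighbours, Leiden resolution 1.0 with leidenalg 0.10.2, seed 1), leaving out the members, the pathway genes, Rab37 and sex-linked genes. A cluster took the marker class with the highest score (mean log2 CPM difference, pseudocount 10 CPM) of at least 0.5, with 3 markers in 10% of its cells. A lead of 0.1 over the next class, and leaving the cluster led by Rhox5 and Col3a1 unnamed, were set after clusters had been inspected. Clusters of 60 cells or more that scored at least 1 for 2 classes were split further (resolution 0.5, 1000 genes, 10 components).

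Counts were summed per lineage and library. Exact 95% intervals were Clopper-Pearson for shares of cells, Poisson for levels, and for ratios binomial given the total. With 1 library per group no test was made. A gene was measured with 20 UMIs over both libraries and called at 1.5-fold. On simulated counts with no change beyond sampling, 6.68% to 8.96% of unchanged genes were called in monocyte/macrophage-like cells, and 92.3% to 95.4% of 2-fold changes.

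Named members were the 12 highest, the 10 with the largest contrast between lineages, Stx11, Stxbp2 and, per comparison, up to 5 each way past 1.5-fold with 50 CPM and level intervals apart (pathway genes, up to 3). The members, the pathway and marker lists, the rules and most alternatives were chosen with earlier results of these data known. Promoters came from RefSeq's GRCm38.p6 table. Proteins were not used here. Some members are counted in totals but not reported by name here.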

Additional observations from a re-analysis of the deposited data

How the results depend on the processing

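No paired analysis was possible because each group is 1 library, and no replicate could be left out. Of 88 alternative counts of members past 1.5-fold, 71 stayed within 1.5 times the reported count. Between the tumor libraries, neutrophil-like cells gave 11 members, 6 at a minimum of 50 UMIs and 4 at 2-fold, and monocyte/macrophage-like cells gave 8, 4 with clusters weighted alike and 1 at 2-fold. In normal lung, neutrophil-like cells gave 2, 4 at 10 UMIs, 0 at 50 UMIs and 0 at 2-fold, and monocyte/macrophage-like cells gave 2, 1 at 50 UMIs and 0 at 2-fold. Tumor against normal in WT, neutrophil-like cells gave 8, 17 with clusters weighted alike, 16 at 10 UMIs, 3 at 50 UMIs and 5 at 2-fold, and monocyte/macrophage-like cells gave 10 and 4 at 2-fold. In Rab37 KO, neutrophil-like cells gave 14, 26 with clusters weighted alike and 9 at 2-fold, and monocyte/macrophage-like cells gave 10 and 2 at 2-fold. Weighting clusters alike uses only clusters found in both libraries, which hold 14.7% of tumor Rab37 KO neutrophil-like cells. There Tnfaip2 reversed from 0.614 to 1.39, tumor against normal in Rab37 KO, and the cause was not tested. Of 554 alternative ratios 507 moved by less than their counting interval, and of 192 levels 186 did. Stx11 between tumor libraries in monocyte/macrophage-like cells ranged from 2.35 to 4.38, and Snap23 from 1.29 to 1.84. Leaving out the cluster led by Arg1, Ppbp and Pf4 was chosen after seeing the data. The highest lineage was kept in 45 of 48 alternatives over 16 genes. Depth limits the tumor WT library most, with 5183771 UMIs and 24 to 59 cells in 5 lineages.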

Other observations

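Outside the 7 lineages, some small classes carried members at levels not described above. Plasmacytoid dendritic cell-like cells (20 and 18 in the normal libraries) had Stx7 at 241 and 278 CPM and Vamp8 at 283 and 284 CPM, in normal WT and normal Rab37 KO. Epithelial-like cells (18 and 30) had Vamp8 at 397 and 549 CPM and Vamp5 at 76.6 and 63.3 CPM. Endothelial-like cells (21 and 56) had Stxbp6 at 39.3 and 92.2 CPM and Vamp5 at 107 and 48.1 CPM. Group 2 innate lymphoid cell-like cells (39 and 52) had Vamp8 at 129 and 86.8 CPM, and fibroblast-like cells (41 and 84) had it at 72.5 and 75.9 CPM. The pathway gene Sytl3, a Rab27 effector, was at 208, 228, 339 and 306 CPM in NK-like cells and at 41.5 CPM or less in the other 6 lineages, in normal WT, normal Rab37 KO, tumor WT and tumor Rab37 KO. Sytl2 was at 84.8, 76.5, 117 and 70.4 CPM in NK-like cells, at 18.9 to 48.5 CPM in T-like cells and at 3.74 CPM or less elsewhere. These values were picked after they had been seen, and no test was made.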
